A study of Mus musculus with 3 samples.

Results

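The 9 genes described here encode the MHC class II antigen presentation machinery: the classical chains H2-Aa, H2-Ab1 and H2-Eb1, the invariant chain Cd74, the DM chains H2-DMa, H2-DMb1 and H2-DMb2, the DO chain H2-Oa, and the transactivator Ciita. They were chosen by gene symbol, and all 9 had a value in every library, out of 12880 genes listed in at least 1 table. RNA came from macrophages of mouse lung, sorted as GFP+, Ly6g-negative and CD64+ cells from LysM-GFP mice on the C57BL/6 background, aged 6 to 8 weeks, in which acute lung injury was induced with nebulized lipopolysaccharide (LPS, a bacterial cell wall component) at 1 mg/ml in saline. In this strain the reporter is driven from the lysozyme M locus, which is active in myeloid cells generally, so the sort rests on Ly6g and CD64 for what it excludes and keeps. Column headings of the deposited tables also name CD11b. Each of the time points 0, 4 and 24 h has 1 library. All samples carry an identical treatment text, and the labels do not tell whether the 0 h animals had inhaled LPS.

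MHC class II molecules present peptides from the endocytic pathway to CD4+ T cells. An alpha and a beta chain assemble in the endoplasmic reticulum with the invariant chain, which blocks the groove and sorts the complex to endolysosomes. Cathepsins then trim the invariant chain to a peptide called CLIP, H2-DM exchanges CLIP for antigenic peptides, and H2-DO restrains H2-DM. CIITA, a coactivator that does not itself bind DNA, is recruited by RFX, CREB and NF-Y factors to a shared promoter module, the X and Y boxes, of class II genes, of Cd74 and of the DM and DO genes. In C57BL/6 mice the E alpha chain is not made, so H2-Eb1 transcript does not give a surface E molecule.

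The promoter stretches below are shown because genes that hold the same cores did not all share a 4 h ratio. RefSeq promoter windows on GRCm38.p6 (250 bases before to 50 after the start, 300 in all) were found for 6 of the 9 genes, the others being H2-Ab1, Cd74 and Ciita. The Y core TGATTGG (an inverted CCAAT, bound by NF-Y) was searched on both strands, as was an X core AGNAAC lying 10 to 40 bases before it on the same strand. The Y core was found in 5 of the 6 genes and in 7.82% of all 32841 windows, and the X and Y pair in 3 of the 6 genes and in 0.311% of all windows. Neither window of H2-DMa held the Y core. Each stretch below is 60 bases, 5′ to 3′ on the strand of the gene, with the matched cores in capitals, and the Y core begins between 45 and 92 bases before the annotated start.
H2-Aa: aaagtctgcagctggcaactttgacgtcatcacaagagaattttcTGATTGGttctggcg
H2-Eb1: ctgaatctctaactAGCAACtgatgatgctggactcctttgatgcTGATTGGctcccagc
H2-DMb1: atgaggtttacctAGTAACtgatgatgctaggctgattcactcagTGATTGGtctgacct
H2-DMb2: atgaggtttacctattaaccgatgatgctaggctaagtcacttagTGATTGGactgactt
H2-Oa: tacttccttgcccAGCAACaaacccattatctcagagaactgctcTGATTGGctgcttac
The H2-Aa stretch lies at chr17:34287859-34287918 on the minus strand. On the plus strand, that of H2-Eb1 lies at chr17:34305761-34305820, that of H2-DMb1 at chr17:34153083-34153142, that of H2-DMb2 at chr17:34145112-34145171 and that of H2-Oa at chr17:34092289-34092348. In H2-Aa and H2-DMb2 these X core letters were not found at that spacing, which says no more than that. A match describes the sequence and is not evidence of a factor bound there in these cells.

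Over the listed genes the libraries of 0, 4 and 24 h held 24825976, 20379236 and 25135476 reads. The 9 genes together took 0.645%, 0.467% and 0.690% of them, or 160078, 95127 and 173313 reads. Levels are normalized read counts, that is reads divided by a size factor common to the 3 libraries, and every interval is a 95% interval that covers counting error only. With 1 library per time point no ratio has a replicate check and no p-value is given. A plain ratio of at least 2-fold between libraries is called higher or lower. The libraries also differed in the sex of the animals, since the reads of Xist numbered 13705, 4 and 1 over the 3 times and those of the Y-linked Ddx3y 4, 3994 and 2357. The 9 genes lie on chromosomes 16, 17 and 18. Sex and time point cannot be told apart in the comparisons with 0 h, whereas 24 h against 4 h compares libraries of the same sex pattern.

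The classical chains and the invariant chain stayed within 2-fold in all 3 comparisons. H2-Aa, the A alpha chain, had 29849, 23976 and 27161 normalized counts at 0, 4 and 24 h. H2-Ab1, its beta partner, had 19952, 18465 and 22485 normalized counts at 0, 4 and 24 h. H2-Eb1, the E beta chain, had 17450, 13217 and 20937. All 3 were lowest at 4 h, H2-Aa being highest at 0 h and the beta chains at 24 h. Cd74, which encodes the invariant chain, had 70035, 57949 and 61491 normalized counts at 0, 4 and 24 h, and ranked 15th, 32nd and 17th among the genes of its library. At 4 h against 0 h the H2-Ab1 ratio was 0.925 (0.906 to 0.945) and the H2-Eb1 ratio 0.757 (0.739 to 0.776), with H2-Aa at 0.803 (0.789 to 0.818) and Cd74 at 0.827 (0.818 to 0.837) between them. Among the classical chains H2-Eb1 had the largest ratio of 24 h over 4 h, 1.58-fold higher (1.55 to 1.62), where H2-Ab1 was 1.22-fold (1.19 to 1.24) and H2-Aa 1.13-fold (1.11 to 1.15). The intervals of these 3 ratios did not overlap, but with ribosomal protein centring H2-Aa and H2-Ab1 are lower at 24 h than at 4 h. The same centring puts the beta chains lower at 24 h than at 0 h.

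**Figure D1:**
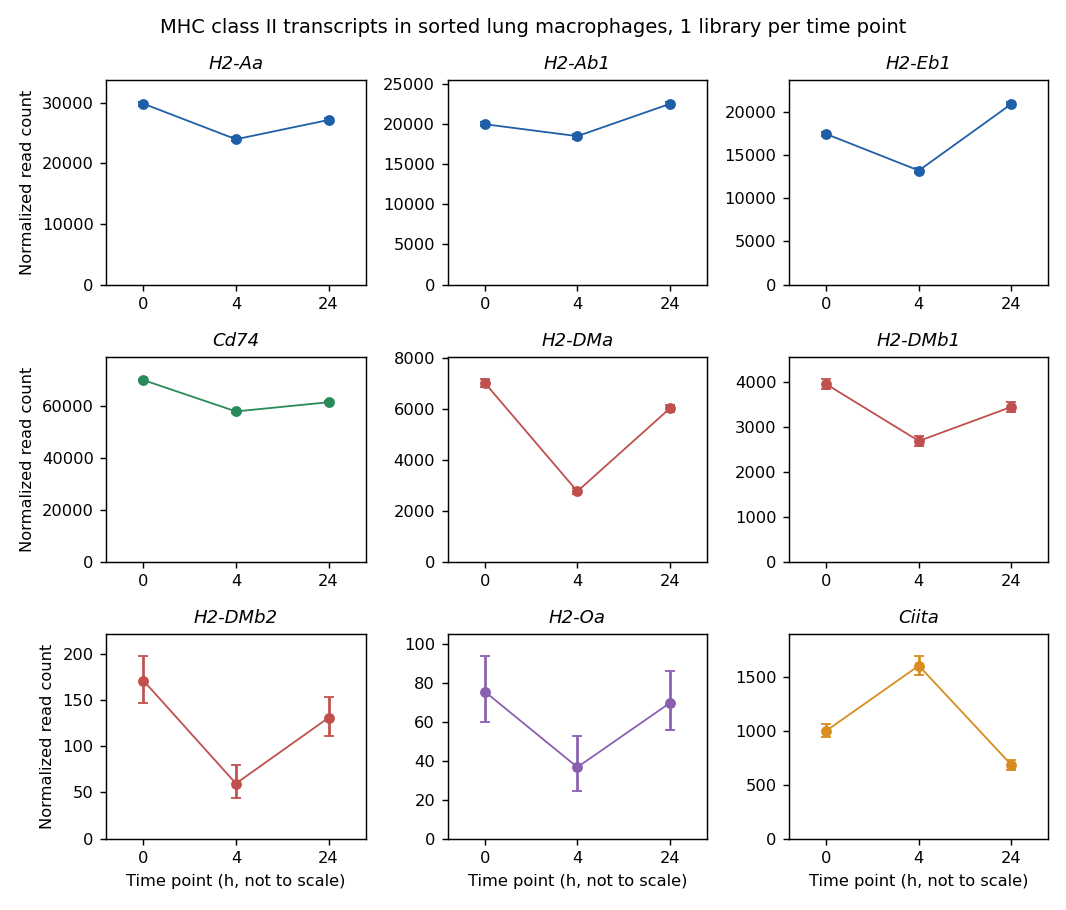
Normalized read counts (vertical axes, each from 0) of the 9 class II genes at 0, 4 and 24 h, each time being a single library. Points are the libraries, bars their 95% Poisson counting intervals, and lines only join the points of a gene. H2-DMa, H2-DMb2 and H2-Oa dip deepest at 4 h, to 2758, 59.7 and 36.8, while Ciita peaks there at 1608.

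The 3 DM genes, of the peptide exchange step, were lower at 4 h than at 0 h by more than the classical chains, with counting intervals apart. H2-DMa, the DM alpha chain, had 7011, 2758 and 6016 normalized counts at 0, 4 and 24 h, on 7508, 2173 and 7321 reads. It was 2.54-fold lower at 4 h than at 0 h (2.42 to 2.67) and 2.18-fold higher at 24 h than at 4 h (2.08 to 2.29). The call at 24 h is lost with ribosomal protein centring, where the log2 ratio is 0.62, and by the authors' deposited table, which gives 0.90. H2-DMb1, the main DM beta chain by reads, had 3943, 2681 and 3439 normalized counts at 0, 4 and 24 h, which is 1.47-fold lower at 4 h than at 0 h (1.40 to 1.55). Its paralog H2-DMb2 had 171, 59.7 and 131 normalized counts on only 183, 47 and 159 reads, and was 2.86-fold lower at 4 h than at 0 h (2.07 to 4.04). The alpha chain and H2-DMb1 encode partners of 1 heterodimer, yet their 4 h ratios differed beyond counting error, so H2-DMa had 178 reads per 100 H2-DMb1 reads at 0 h (171 to 185), 103 at 4 h (96.9 to 109) and 175 at 24 h (168 to 182). H2-DMb2 likewise had 4.33 reads per 100 H2-DMb1 reads at 0 h (3.72 to 5.03), 2.23 at 4 h (1.63 to 2.97) and 3.80 at 24 h (3.22 to 4.45).

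H2-Oa, the DO alpha chain, had the lowest counts of the 9, with 75.6, 36.8 and 69.8 normalized counts at 0, 4 and 24 h. These rest on 81, 29 and 85 reads, so its 2.06-fold lower value at 4 h than at 0 h has an interval of 1.33 to 3.26 that includes ratios short of 2-fold. Relative to H2-DMa its intervals overlapped in all 3 libraries, at 1.08 reads per 100 H2-DMa reads at 0 h (0.856 to 1.34), 1.34 at 4 h (0.892 to 1.92) and 1.16 at 24 h (0.926 to 1.44). H2-Ob, the DO beta chain and not one of the 9, had 92.4, 107 and 154 normalized counts at 0, 4 and 24 h. Some of these counts could draw on other genes. Of the 50-base words of GENCODE M21 transcripts, H2-DMb1 shares 369 of its 1629 with H2-DMb2, or 22.7%. For H2-DMb2, with 183 reads at 0 h against 4222 of H2-DMb1, these are 21.2% of its 1741 words. The division of such reads is uncertain, and the counting intervals of H2-DMb2 do not cover it. Exons of H2-DMa overlap the opposite-strand gene Brd2 over 360 bases (10.4% of its exonic length) and those of H2-Oa an antisense gene over 22.8%. Exons of Ciita overlap the opposite-strand gene Dexi over 3.45% of their length. How strand was handled is not given in the sources used here.

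Ciita, the class II transactivator, had another order. It had 1003, 1608 and 686 normalized counts at 0, 4 and 24 h, on 1074, 1267 and 835 reads. It was 1.60-fold higher at 4 h than at 0 h (1.48 to 1.74), where every other of the 9 was lower. Its 24 h level was 1.46-fold lower than at 0 h (1.33 to 1.60) and 2.34-fold lower than at 4 h (2.15 to 2.56), a ratio short of 2-fold when scaled by total reads, while the other 8 were higher at 24 h than at 4 h, though H2-Aa, H2-Ab1, H2-DMb1 and Cd74 turn to lower there when ratios are centred on ribosomal proteins.

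**Figure D2:**
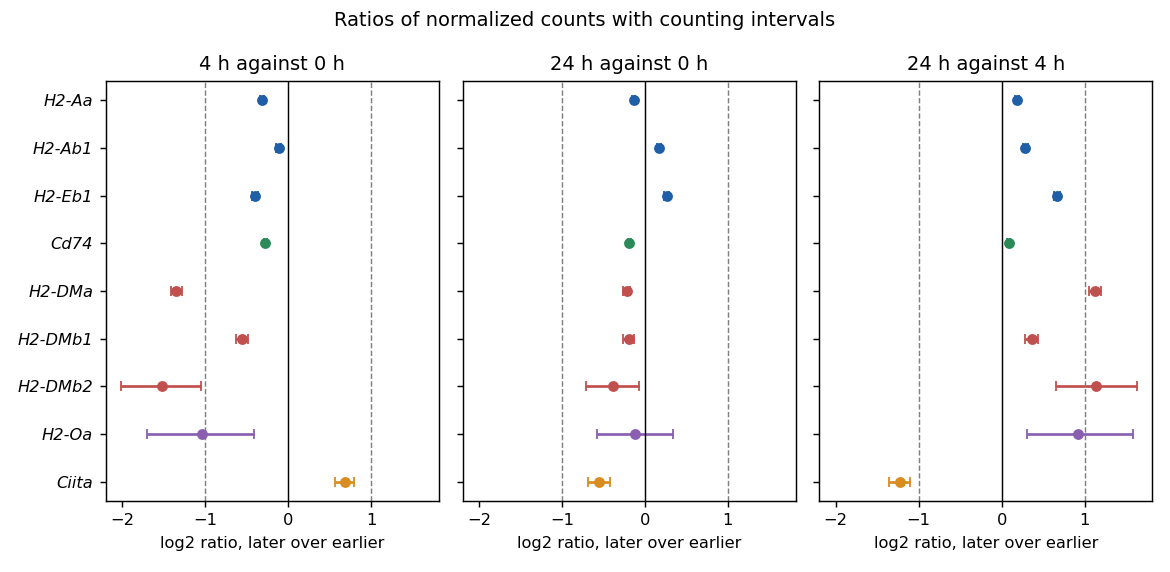
Log2 ratios of normalized counts (later library over earlier) of the 9 class II genes in the 3 comparisons, with 95% counting intervals as bars and dashed lines at 2-fold. The first panel shows H2-DMa at -1.35, H2-DMb2 at -1.52 and H2-Oa at -1.04 against Ciita at 0.68, and the middle panel shows all 9 inside the dashed lines.

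Ratios within a library need no size factor. Per 100 reads of H2-Aa there were 3.36 Ciita reads at 0 h (3.16 to 3.57), 6.71 at 4 h (6.33 to 7.10) and 2.53 at 24 h (2.36 to 2.71). For H2-DMa there were 23.5 at 0 h (22.9 to 24.1), 11.5 at 4 h (11.0 to 12.0) and 22.1 at 24 h (21.6 to 22.7). Relative to H2-Aa, then, Ciita was highest and H2-DMa lowest at 4 h. Both were below their 0 h value at 24 h, with intervals apart, Ciita by the larger fold. For H2-DMb1 there were 13.2, 11.2 and 12.7 reads per 100 H2-Aa reads at 0, 4 and 24 h. For Cd74 there were 235 at 0 h (232 to 238), 242 at 4 h (238 to 246) and 226 at 24 h (224 to 229). Among the chains themselves H2-Aa had 150, 130 and 121 reads per 100 H2-Ab1 reads at 0, 4 and 24 h, and H2-Eb1 had 87.5, 71.6 and 93.1.

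**Figure D3:**
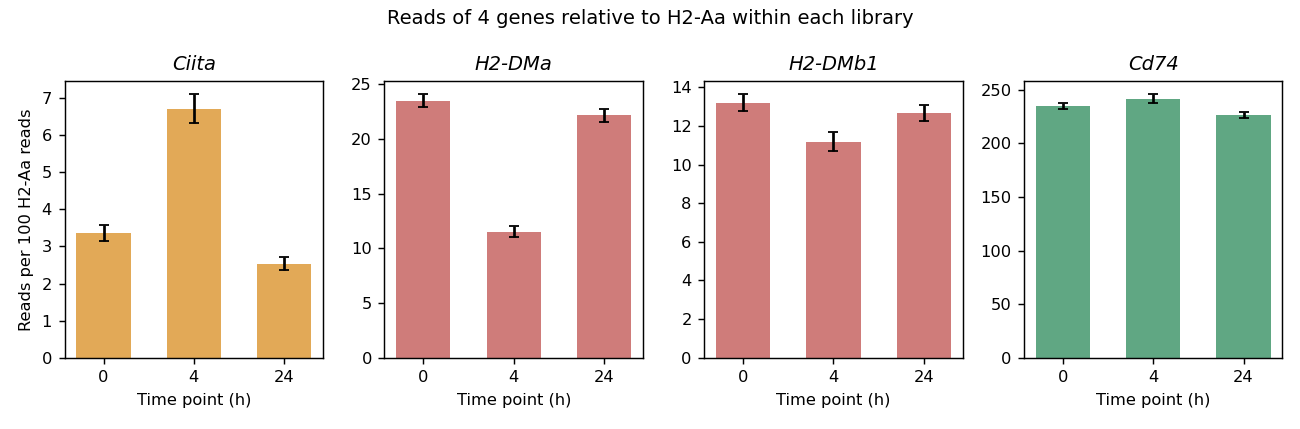
Reads of Ciita, H2-DMa, H2-DMb1 and Cd74 per 100 H2-Aa reads in each library (bars from 0, with 95% counting intervals) at 0, 4 and 24 h. Ciita stands at 6.71 at 4 h against 3.36 at 0 h, H2-DMa at 11.5 against 23.5, and Cd74 stays between 226 and 242.

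Per kilobase of exon (union of GENCODE M21 exons), Cd74 led in every library with 41712, 34514 and 36623 normalized counts per kb at 0, 4 and 24 h. The classical chains followed at 6313 to 10770 per kb across the 3 libraries. H2-Eb1 was first among them at 0 h and 24 h and H2-Ab1 at 4 h. H2-DMb1 (2345, 1595 and 2046 per kb) and H2-DMa (2033, 800.0 and 1745 per kb) came next in each library. Ciita (105, 169 and 72.0 per kb), H2-DMb2 (97.8, 34.1 and 74.8 per kb) and H2-Oa (53.8, 26.2 and 49.6 per kb) closed the order. Neighbours in this order whose counting intervals overlapped were H2-Aa and H2-Ab1 at 0 h, Ciita and H2-DMb2 at 0 h and 24 h, and H2-DMb2 and H2-Oa at 4 h.

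Counted over the whole set, 3 of the 9 genes were at least 2-fold lower at 4 h than at 0 h, where 14.4% of all genes were, and 0 were at least 2-fold higher, where 15.2% were (29.6% in either direction). The 3 were H2-DMa, H2-DMb2 and H2-Oa. The median log2 ratio of the 9 was -0.40, beside 0.00033 over 12463 genes. Between 24 h and 0 h 0 of 9 were at least 2-fold lower, beside 9.10% of all genes, and 0 were higher, beside 4.95% (14.1% in either direction). The median was -0.19, beside -0.0014 over all genes, and 7 of the 9 lay below 0, a split that depends on scaling because H2-Aa and H2-Oa turn positive when scaled by total reads and H2-Ab1 and H2-Eb1 negative when centred on ribosomal proteins. Set against 4 h, the 24 h library had 2 of 9, H2-DMa and H2-DMb2, at least 2-fold higher, beside 14.0% of all genes, and 1, Ciita, lower, beside 18.0% (32.1% in either direction). The higher count is 0 with ribosomal protein centring and 3 by total reads, and the lower count is 1 with that centring and 0 by total reads. The median was 0.36, beside -0.0081 over all genes, and it turned to -0.14 with ribosomal protein centring. Comparisons that share a library are not independent of each other.

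The authors' deposited log2 fold changes lay nearer 0 than the plain ratios for most of the 9 genes. By them 2 of 9 (H2-DMa at -1.08 and H2-DMb2 at -1.09) were at or below -1 at 4 h against 0 h, beside 9.02% of all genes. In that comparison 0 were at or above 1, beside 8.86% (17.9% in either direction). The authors' deposited fold changes passed for 0 of 9 genes at 24 h against 0 h, beside 0.539% of all genes higher and 2.14% lower (2.68% in either direction). They also passed for 0 of 9 at 24 h against 4 h in the authors' deposited table, beside 7.26% higher and 10.2% lower (17.4% in either direction). The lowest of the 27 p-values of the 9 genes in the authors' deposited tables, unadjusted, was 0.162, for H2-DMa at 4 h against 0 h, and these rest on fits to 1 library per time point.

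The 7 H2 genes lie together on chromosome 17, in a stretch of 249 kb from the start of H2-Oa to the end of H2-Eb2 (chr17:34092379-34341410, mm10) that holds 14 listed genes. Cd74 lies at chr18:60803849-60812652 and Ciita at chr16:10480072-10527640. At 4 h against 0 h the H2-Oa and DM end of the stretch was lower and the classical end, within 2-fold, less so, with the class I processing genes Psmb9, Tap1, Psmb8 and Tap2 between them on the other side of 0. Of these, Tap1, a subunit of the peptide transporter of class I, was 2.25-fold higher (2.16 to 2.35), with 7390 normalized counts at 4 h against 3284 at 0 h. Brd2, a chromatin reader next to H2-DMa, had 9938 normalized counts at 4 h against 12345 at 0 h, a log2 ratio of -0.31 where H2-DMa had -1.35. H2-Ob and H2-Eb2, class II genes of low count in the same stretch, had 4 h ratios of 1.15 (0.852 to 1.56) and 1.09 (0.608 to 1.92). The promoter windows of both held the X and Y pair.

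**Figure D4:**
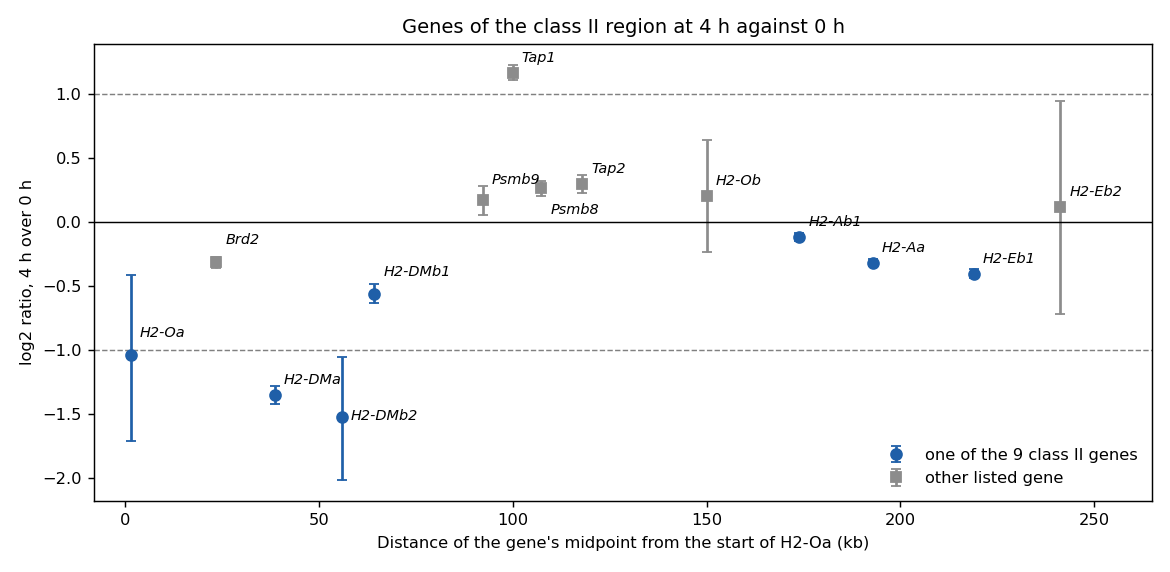
Log2 ratio of 4 h over 0 h (vertical axis, with 95% counting intervals) of the 14 listed genes of the class II stretch of chromosome 17, against the distance of each gene's midpoint from the start of H2-Oa in kb. Circles are class II genes described here and squares other genes. H2-Oa, H2-DMa and H2-DMb2 lie below -1 at the left, Tap1 lies at 1.17 near the middle, and the classical chains at the right lie between -0.40 and -0.11.

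Factors that act on class II promoters were mostly within 2-fold at 4 h against 0 h. Of 10, 3 were at least 2-fold higher and 0 lower, beside 15.2% and 14.4% of all genes, with a median log2 ratio of 0.47. These were Creb1, which binds the X box region, at 2.47-fold (2.30 to 2.65), Nfyb, a subunit of NF-Y, at 2.31-fold (2.02 to 2.64), and the acetyltransferase Kat2b at 2.21-fold (2.06 to 2.38). The 24 h library had 3 of 10 lower than at 0 h and 0 higher, beside 9.10% and 4.95% of all genes. These were the coactivators Crebbp, 4.61-fold lower (4.11 to 5.18), and Ep300, 2.06-fold lower (1.96 to 2.18), and Rfx5, the DNA-binding RFX subunit, 2.01-fold lower (1.77 to 2.28), with 311 normalized counts at 24 h against 623 at 0 h. Scaled by total reads, 1 of 10 was lower and 1 higher. Relative to 4 h, 4 of 10 were lower at 24 h and 0 higher, beside 18.0% and 14.0% of all genes. The counts were 2 and 1 by total reads and 7 and 0 with ribosomal protein centring. Crebbp led at 7.13-fold lower (6.37 to 8.00).

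The interferon-gamma route, which switches Ciita on, had 3 of 13 genes at least 2-fold higher at 4 h than at 0 h and 0 lower. Of all genes 15.2% were higher and 14.4% lower, and the median log2 ratio of the 13 was 0.63. Jak2, a receptor-associated kinase, was 5.81-fold higher (5.52 to 6.12), Socs1, a feedback inhibitor of JAK kinases, 4.13-fold (3.36 to 5.12), and Irf1 2.96-fold (2.89 to 3.04). Between 24 h and 4 h, 7 of 13 were lower and 0 higher (3 and 1 by total reads), beside 18.0% and 14.0% of all genes. The furthest were Jak2 at 4.39-fold lower (4.20 to 4.59), Prdm1 at 4.15-fold lower (3.86 to 4.47) and Irf1 at 4.11-fold lower (4.00 to 4.22). Prdm1, which encodes the Ciita repressor BLIMP1, was the 1 of 13 that passed 2-fold at 24 h against 0 h, beside 14.1% of all genes. It was 3.43-fold lower (3.19 to 3.68), with 3 of 13 lower under ribosomal protein centring. Its normalized counts were 2868, 3474 and 837 at 0, 4 and 24 h. Ciita and Prdm1 thus both had their lowest level at 24 h.

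Endolysosomal enzymes that process antigen and the invariant chain had a median log2 ratio of -0.62 at 4 h against 0 h over the 7 of 8 with a value. Only Ctsd passed, with 1 of 7 lower and 0 higher (2 and 0 by total reads), beside 14.4% and 15.2% of all genes. Ctsd, an aspartic protease, had 24020 normalized counts at 4 h against 195092 at 0 h, 8.12-fold lower (8.00 to 8.24). Ctsl, a cysteine protease, came just short of 2-fold, with 4878 normalized counts at 4 h against 9748 at 0 h. Ctss, the protease that trims the invariant chain in antigen-presenting cells, had 85886 normalized counts at 4 h against 132323 at 0 h, 1.54-fold lower (1.53 to 1.56). Neither direction had a gene past 2-fold between 24 h and 0 h (0 of 7), beside 14.1% of all genes. Ratios lay between 0.927 for Ctsh and 1.21 for Ifi30, the thiol reductase of antigen processing, with 0.934 for the most abundant, Ctsd. Ctsd was the 1 of 7 higher at 24 h than at 4 h, by 7.58-fold (7.47 to 7.70), with 0 lower. Of all genes 14.0% were higher and 18.0% lower. By total reads 3 of 7 were higher.

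Regulators of class II at the cell surface and ligands for T cells had higher values at 4 h in several cases. Marchf1, listed as March1 and encoding a ubiquitin ligase that takes class II and CD86 off the surface, had 2205, 6112 and 2807 normalized counts at 0, 4 and 24 h. It was 2.77-fold higher at 4 h than at 0 h (2.64 to 2.91) and the 1 of 6 turnover genes past 2-fold there, with 0 lower. By total reads 1 was higher and 1 lower. Marchf8, listed as March8 and the other MARCH gene of the list, had 1840, 965 and 1066 normalized counts at 0, 4 and 24 h. It was 1.91-fold lower at 4 h than at 0 h (1.75 to 2.08). Of all genes 15.2% were higher and 14.4% lower. By 24 h 2 of 6 were lower than at 0 h and 0 higher, beside 9.10% and 4.95% of all genes. These were Il10 at 10.6-fold lower (6.90 to 17.1) and Cd83, which opposes MARCH1, at 2.76-fold lower (2.69 to 2.82). Comparing 24 h with 4 h, Il10, Cd83 and Marchf1, 3 of 6, were lower and 0 higher, beside 18.0% and 14.0% of all genes. The counts were 2 and 0 by total reads and 5 and 0 with ribosomal protein centring. Of 6 costimulatory genes, 2 were higher at 4 h than at 0 h and 0 lower (2 and 1 by total reads). Of all genes 15.2% were higher and 14.4% lower. Cd40, a receptor for T cell help, was 9.27-fold higher (8.32 to 10.4) and Cd86, a ligand of CD28, 2.72-fold (2.51 to 2.94). Icosl, Cd80, Cd274 and Pdcd1lg2, 4 of the 6, were 2.04-fold to 2.78-fold below their 0 h level at 24 h, with 0 higher. By total reads 3 were lower and 0 higher. Of all genes 9.10% were lower and 4.95% higher. Compared with 4 h, 5 of 6 were lower at 24 h and 0 higher, beside 18.0% and 14.0% of all genes. Cd40 was the furthest at 8.27-fold.

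The class I pathway was set beside these genes. Nlrc5, the class I counterpart of Ciita, had 1976, 7237 and 1357 normalized counts at 0, 4 and 24 h, 3.66-fold higher at 4 h than at 0 h (3.48 to 3.85). The class I heavy chains H2-K1 and H2-D1 were 1.18-fold (1.16 to 1.20) and 1.19-fold (1.17 to 1.20) lower at 4 h than at 0 h, where Cd74 was 1.21-fold lower (1.20 to 1.22). Of 10 class I genes, 2 were higher at 4 h than at 0 h, Nlrc5 and Tap1, and 0 lower. Of all genes 15.2% were higher and 14.4% lower. Between 24 h and 0 h 0 of 10 passed in either direction, beside 14.1% of all genes (1 lower with ribosomal protein centring). The most abundant, B2m, had 79261 normalized counts at 24 h against 61901 at 0 h. Nlrc5 was the 1 of 10 lower at 24 h than at 4 h, by 5.33-fold, with 0 higher (2 and 0 with ribosomal protein centring). Of all genes 18.0% were lower and 14.0% higher.

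**Figure D5:**
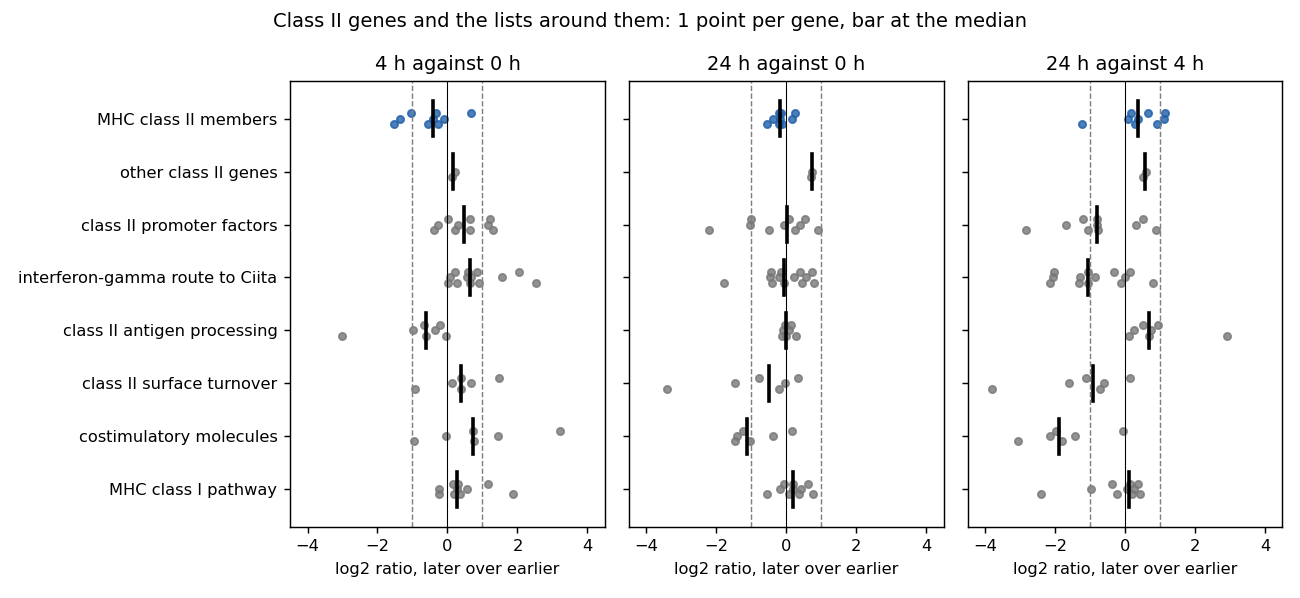
Log2 ratios (later library over earlier, 1 point per gene, black bar at the median) of the 9 class II genes and of 7 lists of related genes in the 3 comparisons, with dashed lines at 2-fold. At 4 h against 0 h the class II genes and the antigen processing genes have medians of -0.40 and -0.62, while the promoter factors and the interferon-gamma route have 0.47 and 0.63.

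Markers of several cell types differed between the libraries, and in bulk RNA fewer cells of a type and less RNA per cell cannot be told apart. All 8 genes of the pan-macrophage list had values, summing to 117353, 191117 and 115967 normalized counts at 0, 4 and 24 h. Of these, Ptprc gave 23843, 73267 and 34677 and Itgam 7235, 33421 and 7385, and neither gene is confined to macrophages. Csf1r, Adgre1, Cd68 and Spi1 were within 2-fold in all 3 comparisons, whereas at 4 h Itgam, Ptprc and Fcgr1, which encodes the CD64 used in the sort, were at least 2-fold higher than at 0 h and Mertk lower. Summed normalized counts of 11 alveolar macrophage markers were 743414, 279091 and 418381 at 0, 4 and 24 h, with 9 of 11 at least 2-fold lower at 4 h than at 0 h. Chil3, listed as Chi3l3, alone gave 601110, 209378 and 310123 of these sums. At 24 h against 0 h 1 of 11 was lower and 0 higher, beside 9.10% and 4.95% of all genes. The counts were 0 and 0 by total reads and 6 and 0 with ribosomal protein centring. Summed counts of 8 classical monocyte markers were 17411, 331386 and 62964, with 8 of 8 higher at 4 h, and those of 11 neutrophil markers 5033, 39733 and 8141. Mmp8 alone gave 1516, 15128 and 941 of the neutrophil sums. Of the 10 neutrophil markers with a ratio to 0 h, 10 were higher at 4 h. At 24 h 6 of these 10 were higher than at 0 h and 0 lower, beside 4.95% and 9.10% of all genes. With ribosomal protein centring 5 were higher and 1 lower. The neutrophil sum at 0 h rests on the 10 of 11 with a value there. Among 9 interstitial macrophage markers, which sum to 10811, 23116 and 15083, 4 were higher at 4 h and 3 lower. Of all genes 15.2% were at least 2-fold higher at 4 h than at 0 h and 14.4% lower. The part of these marker shifts in the class II values was not tested.

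Markers of dendritic cells, lymphocytes and epithelium, some of which carry class II, were also detected. All 10 conventional dendritic cell markers were listed, with a sum of 1679, 5976 and 2957 normalized counts at 0, 4 and 24 h. Of these 5 were higher and 2 lower at 4 h than at 0 h, beside 15.2% and 14.4% of all genes. The higher ones included Kmo at 882 against 84.1 and Flt3 at 1225 against 147. The lineage factor Zbtb46 had 51.4, 39.4 and 34.5, and Clec9a, of cross-presenting dendritic cells, 259, 91.4 and 230. Of 10 B cell markers 7 were listed, but only 2 of them, Cd79b and Fcer2a, had a value at 0 h. Cd79b had 38.3, 77.4 and 186 normalized counts at 0, 4 and 24 h and Fcer2a 2.80, 38.1 and 14.8. Plasmacytoid dendritic cell markers summed to 70.0, 41.9 and 40.3 over the 3 of 5 listed. Of 8 T cell markers 6 were listed and 3 had a value at 0 h. Cd4 had 136, 38.1 and 20.54 normalized counts at 0, 4 and 24 h, while Cd247 had 5.60, 20.3 and 15.6 and Lck 7.47, 26.7 and 22.2, so these markers did not share a direction. Alveolar type 2 epithelial markers, which include abundant surfactant transcripts, summed to 22933, 27906 and 25869 over 8 of 8, Sftpc alone giving 7817, 6079 and 9649. They did not share a direction. At 4 h against 0 h Lamp3 (3.53-fold) and Napsa (2.10-fold), 2 of 8, were higher and 1, Epcam, 6.01-fold lower (1 and 1 by total reads). Between 24 h and 0 h Abca3 (2.87-fold) and Epcam (2.85-fold), 2 of 8, were lower and 0 higher. Of all genes 9.10% were lower and 4.95% higher there. The part of any of these cells in the class II values was not tested.

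The genes whose pattern over the 3 libraries came nearest to the mean of H2-Aa, H2-Ab1, H2-Eb1 and Cd74 were Elovl1, Ubl3, Atp5c1, Mpp1 and Eif3l. Likeness was the distance between log2 normalized counts centred on each gene's mean, among 3028 genes averaging 1666 normalized counts or more, and these 5 lay at 0.011 to 0.028. Elovl1, for instance, had 3225, 2653 and 3252 normalized counts at 0, 4 and 24 h. H2-Aa itself lay at 0.12, with 95 of the 3028 genes nearer to the mean pattern, and Ciita at 1.10, with 2245 nearer. With 3 points per gene, many genes share such a pattern.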

How the data were processed

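Bulk RNA sequencing of sorted lung macrophages was analysed from 3 deposited tables, each comparing 2 of the 3 libraries. Per the submitters' processing notes the authors used DESeq2 and the build mm10. For aligner, counter, annotation and strand setting, nothing is given in the sources used here. The deposited signal values are reads per gene over a size factor, and 100% were whole reads within 0.001 reads. The deposited log2 fold changes are shrunken, and the unadjusted deposited p-values come from single libraries. Deposited starts count from 0, so 1 was added (53.0% of 11401 genes then equal RefSeq starts, 3.82% as deposited).

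In the table of 24 h against 0 h 1 column is headed 4 h but equals the 0 h reads in 12310 of 12310 shared genes and the 4 h reads in 0.530%. No sample was assigned to it, and it served for this check alone, and the table's fold changes were read as the table is named. Repeated rows, 20 in total over the 3 tables, were dropped.

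Whole reads over size factors (the median of ratios, taken on the 12481 genes present in every library; 1.07, 0.788 and 1.22 for 0, 4 and 24 h) gave the normalized counts, with Python 3.11.15, pandas 2.3.3 and scipy 1.17.1. Ratios have Clopper-Pearson intervals on the reads of both libraries and levels Poisson intervals, at 95%. They cover counting error only, as PCR copies of a molecule are not marked. With single libraries no count model could estimate a spread, and none was fitted. Time points come from the labels. Recovery, scaling and calls were tested on simulated data with counting error only and most genes unchanged. That cannot check the scaling of these libraries, where many genes differ.

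The 9 genes and the lists were chosen with earlier results of these data known. All 9 are named. Of each list the text names up to 3 genes past 2-fold in each direction, or the most abundant, and of the markers up to 2 with the largest ratio or those near 0. Ctsl, Ctss, Ctsh, Ifi30, H2-K1, H2-D1, Pdcd1lg2, Clec9a, Cd4, Sftpc, Csf1r, Adgre1, Cd68, Spi1, Itgam, Ptprc, Fcgr1 and Mertk were named outside that rule, after their values were seen, as was Brd2. Psmb9, Psmb8, Tap2 and H2-Eb2, genes of the class II stretch, were also named outside it. So were Marchf8, Napsa, Chil3 and Mmp8, after their values were seen. Alternatives changed the scaling, the fold measure, the threshold, a pseudocount and a filter on low counts.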

Additional observations from a re-analysis of the deposited data

How the results depend on the processing

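At 4 h against 0 h the count of lower class II genes was 3 under each scaling tried and at 1.5-fold, and 2 with the deposited fold changes, with a pseudocount of 10 or with a mean of at least 100. Ciita made 1 higher gene at 1.5-fold. At 24 h against 0 h ribosomal protein centring gave 1 lower gene, Ciita, where other settings gave 0. At 24 h against 4 h the count of higher genes was 0 with ribosomal protein centring or the deposited fold changes, 3 with total reads, 4 at 1.5-fold and 1 with a mean of at least 100, against 2. The count of lower genes there was 0 with total reads or the deposited fold changes, against 1. The deposited fold changes lay mostly nearer 0 than the plain ratios of these genes. The cause of these differences between settings was not tested. Shares of all genes were worked out for the main ratios and the deposited fold changes only. Counts under the other settings, here and above, therefore cannot be set against a share of all genes. Against the size factors used, total reads shifted every log2 ratio by -0.16, 0.17 and 0.32 in the 3 comparisons (4 h against 0 h, 24 h against 0 h, 24 h against 4 h) and ribosomal protein centring by 0.018, -0.56 and -0.50. The sign of a class II gene differed from the value given in 0 of 45, 4 of 45 and 4 of 45 cases. Of the 7 related lists, the medians of the promoter factors, the interferon-gamma route, antigen processing and class I differ in sign between these scalings at 24 h against 0 h, and that of class I also at 24 h against 4 h. Depth limits H2-Oa and H2-DMb2. No paired analysis was possible because each time point has 1 library, which also leaves nothing to leave out.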
